A study of Mus musculus with 18 samples.

Results

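The pituitary of mice lacking the microRNA miR-205 was compared with the pituitary of wild-type mice, on 6 of the 18 arrays of the series. The 3 arrays labelled pituitary and miR-205 KO (samples 16, 17 and 18) were set against the 3 labelled pituitary and wt (samples 10, 11 and 12). All mice were of the strain C57BL/6, labelled as female and aged 5 to 6 weeks, and none received a treatment. Total RNA was amplified, turned into single-stranded cDNA and hybridised to Clariom S, an Affymetrix array that reads most mouse genes with a single probe set. A further knockout of the same locus, labelled lncKO and named for MIR205HG in the title of the series, gave 3 pituitary arrays of the same strain and age (samples 13, 14 and 15). Skin arrays of wild type and miR-205 KO, 3 of each and also C57BL/6 of that age, served as a second tissue. The labels do not say how the miR-205 deletion was made, whether the mice of a group were littermates, or whether each array holds RNA of 1 animal. The p-values therefore describe how far these arrays spread, and part of that spread may be technical.

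MicroRNAs are short RNAs that guide Argonaute proteins to messenger RNAs through the seed, the bases near their 5′ end, and lower the stability or translation of the messages they pair with. miR-205 is known best in stratified epithelia such as the epidermis, where it is abundant, and it is cut from a transcript of the MIR205HG locus, which also gives a long noncoding RNA. The anterior pituitary makes growth hormone, prolactin, the gonadotropins, thyrotropin and the peptides of the corticotrophs in separate cell types, and a pool of stem cells renews them. The sequences of the deleted microRNA are shown because they identify what the knockout removes. The arms and hairpin below were taken from RefSeq on GRCm38.p6, written 5′ to 3′, with the seed (bases 2 to 8) of each mature arm and the mature parts of the hairpin in capitals. The 5p arm lies at chr1:193507503-193507524, the 3p arm at chr1:193507467-193507488 and the 68-base hairpin at chr1:193507463-193507530, all on the minus strand.
mmu-miR-205-5p: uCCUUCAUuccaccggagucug
mmu-miR-205-3p: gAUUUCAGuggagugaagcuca
Mir205 hairpin: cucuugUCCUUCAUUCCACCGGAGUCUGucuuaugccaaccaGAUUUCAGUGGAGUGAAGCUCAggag
Among the 1738 mature mouse miRNAs of that table, 0 others carried either seed. No probe set named here measures miR-205 or the MIR205HG transcript, and the genotype of each array rests on its label.

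The arrays of both groups had like distributions of the deposited intensities. How these were normalized is not stated, and normalization can make such distributions alike. No measure of RNA quality was examined. Array medians of intensity ran from 84 to 91 in wild type and from 88 to 91 in miR-205 KO, and on each array 24.7% to 25.3% of probe sets read 16 or less, near the lower end of the scale. Pearson's r of log2 intensity, across probe sets, was 0.9899 to 0.993 within wild type, 0.9917 to 0.9924 within miR-205 KO and 0.9884 to 0.992 between the groups, so the groups overlapped by this measure. The pituitary hormone genes were among the brightest probe sets, as set out below for Gh. Transcripts of the Y chromosome were present in all 9 pituitary arrays, with Uty at a log2 intensity of 10.87 to 11.19, Kdm5d at 7.43 to 8.31 and Eif2s3y at 9.13 to 10.68, although every label says female. In skin the same probe sets lay at 2.58 to 3.70, 2.58 to 3.17 and 2.32 to 3.46, so tissue and sex cannot be told apart in a comparison of pituitary with skin. The extraction text beside the pituitary samples speaks of ear tissue.

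Few genes differed between miR-205 KO and wild-type pituitary, in both directions. Of 19572 probe sets with a gene symbol, 21 passed an adjusted p of 0.05 (limma with Benjamini-Hochberg adjustment), which is 0.107% of those tested. The chemokine gene Cxcl9, the meiotic cohesin gene Rec8, the Wnt receptor gene Fzd6 and its chromosomal neighbour Baalc, the growth factor gene Igf1 and the kallikrein gene Klk1 were among the 13 that fell. The protease gene Ctse and the extracellular matrix genes Colgalt2 and Hmcn1 were among the 8 that rose. All 21 changed at least 2-fold, and in all 21 the knockout arrays lay wholly outside the range of the wild-type arrays, as did 10.5% of all probe sets tested. At an adjusted p under 0.1 the count was 28, and at an unadjusted p under 0.05 it was 1462, or 7.47%, of which 849 were higher and 613 lower in the knockout. The fit drew its spread from all 9 pituitary arrays, and each array mattered to the count: it was 7, 6 and 4 without wild-type samples 10, 11 and 12, 14, 7 and 12 without lncKO samples 13, 14 and 15, and 8, 5 and 5 without miR-205 KO samples 16, 17 and 18. Ctse, Cxcl9, Fzd6 and Rec8 stayed past the threshold in all 9 of those fits.

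**Figure D1:**
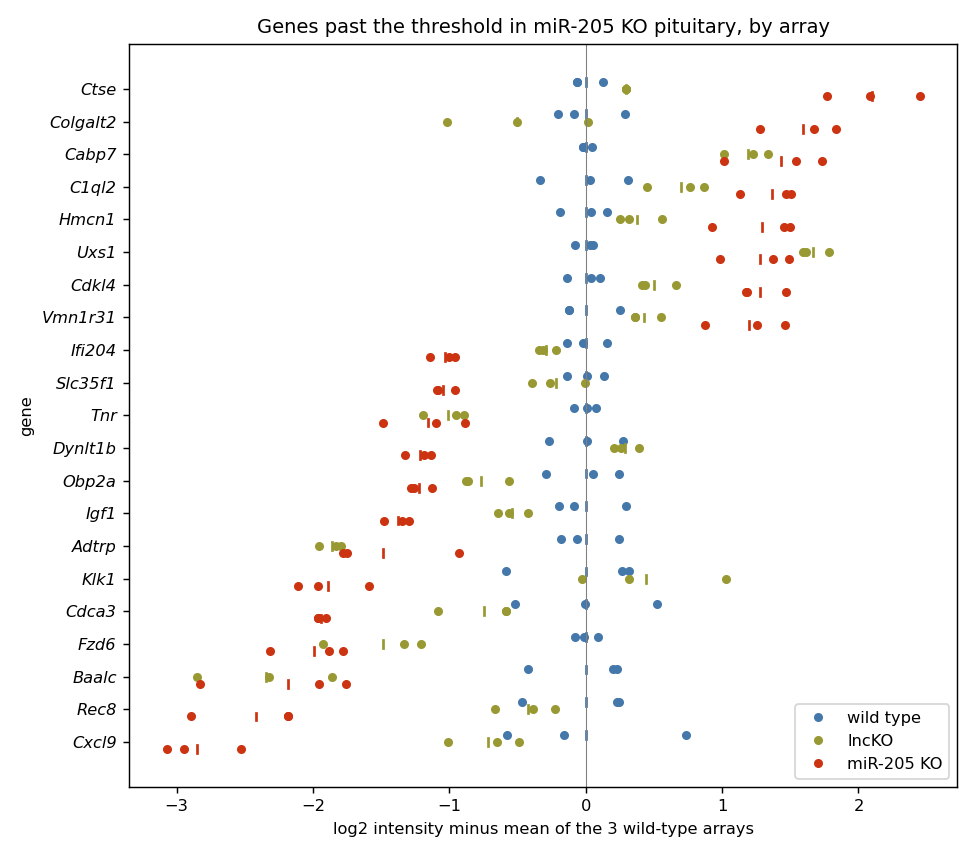
Each of the 21 genes past the threshold (rows) is shown by its log2 intensity minus the mean of the 3 wild-type arrays (x axis), with 1 point per array in blue for wild type, olive for lncKO and red for miR-205 KO, and a tick at each group mean. The red points lie outside the blue points in every row, while the olive points lie with the red for some genes (Baalc, Adtrp, Tnr, Uxs1) and with the blue for others (Dynlt1b, Slc35f1, Klk1).

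Cxcl9, an interferon-inducible chemokine that attracts T cells through the receptor CXCR3, read 62, 83 and 154 in the wild-type arrays and 11, 16 and 12 in miR-205 KO, with 59, 66 and 46 in lncKO. Its log2 difference from wild type was -2.85 ± 0.30 (SE, n = 3 per group, adjusted p = 0.00371), and the knockout level sits at the dim end of the array. The other ligands of CXCR3 gave log2 differences of -0.89 for Cxcl10 (adjusted p = 0.598) and 0.20 for Cxcl11 (adjusted p = 0.886). Ifi204, an interferon-inducible gene of the Ifi200 cluster of DNA-sensing proteins, fell from 261, 295 and 241 to 136, 120 and 132, a log2 difference of -1.04 ± 0.16 (SE, n = 3, adjusted p = 0.0373). Of 9 Ifi200 genes measured, Ifi204 passed the threshold and 5 had an unadjusted p under 0.05, as did 7.47% of all probe sets. The 9 had a median of -0.67 and a range of -1.18 to 0.08. The family was chosen after the Ifi204 value was seen, and the count of 5 includes Ifi204 itself. The Ifi200 genes are close copies of each other, so their signals may be shared. A list of 15 interferon-stimulated genes had a median of -0.02, with 0 members past the adjusted threshold and 2 lower at an unadjusted p under 0.05 (Gbp2 and Cxcl10), against 3.13% of all probe sets lower at that p.

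Markers of immune cells had mostly negative differences on the same arrays. The mean log2 intensity of 11 macrophage and lymphocyte markers was 6.25 to 6.48 in wild type and 6.06 to 6.21 in miR-205 KO, with 10 of 11 members negative, as were 47.6% of all probe sets. The lowest unadjusted p values among them were those of Ptprc, the pan-leukocyte phosphatase CD45, at -0.46 (adjusted p = 0.586), and of Ms4a1, the B-cell gene for CD20, at -0.42 (adjusted p = 0.651). The part of these cells in the Cxcl9 and Ifi204 differences was not tested. In whole-tissue RNA, fewer cells of a type and less RNA per cell cannot be told apart.

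Klk1, a tissue kallikrein that cleaves kininogen, read 604, 323 and 581 in wild type against 112, 124 and 161 in miR-205 KO, a log2 difference of -1.89 ± 0.30 (SE, n = 3, adjusted p = 0.0459). The lncKO arrays read 476, 604 and 985 and overlapped wild type. Klk1 belongs to a cluster of near-identical genes, and which of them a probe reads is uncertain. Of 12 measured, 1 passed the threshold and 5 had an unadjusted p under 0.05, as did 7.47% of all probe sets. The family was chosen after the Klk1 value was seen, and both counts include Klk1 itself. The next lowest was Klk1b26, at 168, 228 and 210 against 79, 79 and 102 (log2 difference -1.22, adjusted p = 0.0767). Obp2a, a lipocalin of the odorant-binding kind, fell from 179, 141 and 204 to 72, 79 and 71, a log2 difference of -1.22 ± 0.18 (SE, n = 3, adjusted p = 0.0373).

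Igf1 encodes insulin-like growth factor I, which in the body is made downstream of growth hormone and in turn restrains its release. It read 1933, 2711 and 2080 in wild type, 870, 898 and 792 in miR-205 KO and 1412, 1498 and 1651 in lncKO. The log2 difference of -1.38 ± 0.18 (SE, n = 3) had an adjusted p of 0.0156, and the knockout arrays lay below both other groups. Over 11 measured genes of the IGF system, chosen after the Igf1 value was seen, Igf1 alone passed the threshold. Its receptor gene Igf1r was at -0.06 (adjusted p = 0.971), and the binding protein gene nearest to a call was Igfbp7, at 17428, 20335 and 18773 against 14189, 14096 and 14237 (log2 difference -0.41, adjusted p = 0.622).

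Fzd6, a Frizzled receptor of Wnt and planar polarity signalling, read 1378, 1287 and 1224 in wild type against 377, 352 and 260 in miR-205 KO (log2 difference -1.99 ± 0.22, SE, n = 3, adjusted p = 0.00479). Baalc, a gene expressed in neural and haematopoietic progenitors, read 835, 1284 and 1310 against 158, 288 and 331 (-2.18 ± 0.32, adjusted p = 0.0310). Among measured genes Baalc and Fzd6 are direct neighbours on chromosome 15, in the gene order of RefSeq GRCm38.p6. Both were low in lncKO as well, at 515, 340 and 560 for Fzd6 and 308, 224 and 155 for Baalc. The other 9 Frizzled genes measured gave log2 differences of -0.21 to 0.37, none with an unadjusted p under 0.05, so the fall was seen at 1 of 10 receptors. A list of 15 Wnt and Notch pathway genes had a median of -0.02. It had 0 members at that p in either direction, beside 7.47% of all probe sets, and so short a list cannot tell 0 from that share.

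Tnr, the tenascin of the nervous system's extracellular matrix, fell from 2585, 2888 and 2754 to 1280, 1483 and 978 (-1.16 ± 0.19, SE, n = 3, adjusted p = 0.0476), and the lncKO arrays read 1195, 1476 and 1420. Adtrp, a membrane hydrolase of fatty acid esters, fell from 342, 371 and 460 to 204, 115 and 113 (-1.49 ± 0.23, adjusted p = 0.0412), with lncKO at 100, 112 and 109. For both genes the arrays of the 2 knockouts lay together below wild type. Slc35f1, a member of the nucleotide sugar transporter-like SLC35 family, differed from them in lncKO: it read 656, 543 and 602 in wild type, 307, 283 and 281 in miR-205 KO and 500, 596 and 456 in lncKO (-1.05 ± 0.17 from wild type, adjusted p = 0.0476), and the lncKO arrays overlapped wild type.

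Rec8, the cohesin subunit that holds sister chromatids together in meiosis, read 165, 167 and 102 in wild type against 19, 31 and 31 in miR-205 KO, with lncKO at 108, 121 and 89. The log2 difference was -2.42 ± 0.25 (SE, n = 3, adjusted p = 0.00371). The other meiotic cohesin genes measured, Stag3, Smc1b and Rad21l, each read 35 or less on every wild-type and miR-205 KO array and had an adjusted p of 0.832 or more. Cdca3, which triggers mitotic entry and peaks in dividing cells, fell from 68, 97 and 140 to 26, 25 and 25 (-1.94 ± 0.25, adjusted p = 0.0156), and lncKO lay between at 46, 65 and 65. Dynlt1b, a light chain of the dynein motor, fell from 6840, 9990 and 8290 to 3295, 3615 and 3746 (-1.22 ± 0.18, adjusted p = 0.0310), with lncKO at 10829, 9855 and 9530. Its near-identical copies Dynlt1a, Dynlt1c and Dynlt1f stood at -0.77, -0.77 and -0.89 with adjusted p values of 0.200, 0.231 and 0.181, and whether the 4 probe sets read separate transcripts is uncertain.

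Among the genes that rose, Ctse had the lowest p of all probe sets. Ctse encodes cathepsin E, an aspartic protease of the endosome. It read 7, 8 and 7 in wild type, 9, 9 and 9 in lncKO and 25, 31 and 40 in miR-205 KO (log2 difference 2.10 ± 0.19, SE, n = 3, adjusted p = 0.00217), so the rise starts from the bottom of the scale. Colgalt2, a galactosyltransferase that modifies hydroxylysine in collagen, rose from 52, 40 and 37 to 152, 136 and 103 (1.60 ± 0.26, adjusted p = 0.0476), while lncKO read 21, 43 and 30. Hmcn1, hemicentin-1 of the extracellular matrix, rose from 75, 59 and 69 to 190, 184 and 128 (1.29 ± 0.20, adjusted p = 0.0373), with lncKO at 80, 99 and 84. For these 3 genes the miR-205 KO arrays lay above both other groups, as they did for C1ql2, Cdkl4 and Vmn1r31, described next.

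Uxs1, which makes the UDP-xylose needed to start proteoglycan chains, was higher in both knockouts: it read 925, 843 and 911 in wild type, 1761, 2505 and 2307 in miR-205 KO and 2732, 3068 and 2694 in lncKO (1.28 ± 0.18 for miR-205 KO, SE, n = 3, adjusted p = 0.0242). Cabp7, a neuronal calcium-binding protein of the calneuron family, read 21, 22 and 21 against 43, 71 and 62 (1.43 ± 0.20, adjusted p = 0.0264), with lncKO at 43, 50 and 54. Both genes thus had lncKO arrays above wild type. C1ql2, a C1q-like protein secreted at synapses, rose from 86, 71 and 55 to 197, 152 and 192 (1.37 ± 0.21, adjusted p = 0.0373), and lncKO lay between at 118, 127 and 95. Its relative C1ql3 read 30, 17 and 37 against 32, 58 and 228 and was high on sample 18 alone (adjusted p = 0.586). Cdkl4, a cyclin-dependent kinase-like gene, rose from 158, 187 and 179 to 482, 396 and 394 (1.28 ± 0.17, adjusted p = 0.0179), with lncKO at 275, 235 and 232 between the groups. Vmn1r31, a vomeronasal receptor gene, completed the 8, at 10, 10 and 13 against 30, 26 and 20 (1.20 ± 0.19, adjusted p = 0.0476), a difference near the bottom of the scale. Ctse, Vmn1r31 and Ifi204 fell outside the rule for named genes and were chosen after their values were seen.

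The lncKO arrays allow a direct test of whether the knockouts of the locus differ. Between miR-205 KO and lncKO pituitary, 57 probe sets passed the adjusted threshold, 0.291% of those tested, and 6 of the 21 genes were among them; this comparison and that with wild type use the same miR-205 KO arrays, so the 6 are not an independent count. Cxcl9 was lower in miR-205 KO than in lncKO by -2.14 on the log2 scale (adjusted p = 0.0151), Rec8 by -1.998 (0.0112), Klk1 by -2.33 (0.0112) and Dynlt1b by -1.50 (0.00878). Colgalt2 was higher by 2.10 (adjusted p = 0.0112) and Ctse by 1.80 (0.00572). The count of 57 was 45, 65 and 30 without wild-type samples 10, 11 and 12, 14, 9 and 37 without lncKO samples 13, 14 and 15, and 4, 11 and 24 without miR-205 KO samples 16, 17 and 18. At an unadjusted p under 0.05, 16 of the 21 differed between the knockouts, as did 11.1% of all probe sets. The differences between the knockouts for Baalc (0.16 ± 0.32), Tnr (-0.14 ± 0.19), Adtrp (0.37 ± 0.23), Uxs1 (-0.38 ± 0.18) and Cabp7 (0.24 ± 0.20) did not reach that p. The comparisons of each knockout with wild type share the wild-type arrays. Side by side, the log2 differences from wild type in miR-205 KO and lncKO were -2.18 and -2.35 for Baalc, -1.99 and -1.49 for Fzd6, -1.49 and -1.86 for Adtrp, -1.16 and -1.01 for Tnr, 1.28 and 1.66 for Uxs1 and 1.43 and 1.19 for Cabp7.

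The skin arrays share no sample with the pituitary arrays. In skin, 3293 probe sets, 16.8%, passed the threshold for miR-205 KO against wild type, and 8 of the 21 pituitary genes were among them. In skin as in pituitary, Ctse was higher (2.58 ± 0.44 on the log2 scale, adjusted p = 0.00267). Lower in both were Obp2a (-1.64 in skin, adjusted p = 0.00521), Slc35f1 (-1.59, 0.00392), Fzd6 (-1.07, 0.00628), Tnr (-1.05, 0.00820) and Dynlt1b (-1.01, 0.0372). Adtrp and Hmcn1 went in opposite directions, at 0.90 in skin for Adtrp (adjusted p = 0.00871) and -0.81 for Hmcn1 (0.0208). Over all 21 genes, 13 had the same sign in both tissues. The share of all probe sets with the same sign was not counted, so the 13 are not read as agreement between the tissues. A test of the difference between the tissues in 1 fit of all 18 arrays passed the threshold for 1948 probe sets, 9.95%. It did so for 11 of the 21 genes, Cxcl9, Adtrp, Igf1 and Hmcn1 with the lowest p among them. The pituitary difference that chose the 21 is part of the difference tested, so the 11 are not an independent count. For Ctse, Obp2a, Tnr and Dynlt1b the tissue difference was between -0.48 and 0.41, with adjusted p values of 0.538 or more. It was 0.54 for Slc35f1 (adjusted p = 0.340) and -0.92 for Fzd6 (0.0595).

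**Figure D2:**
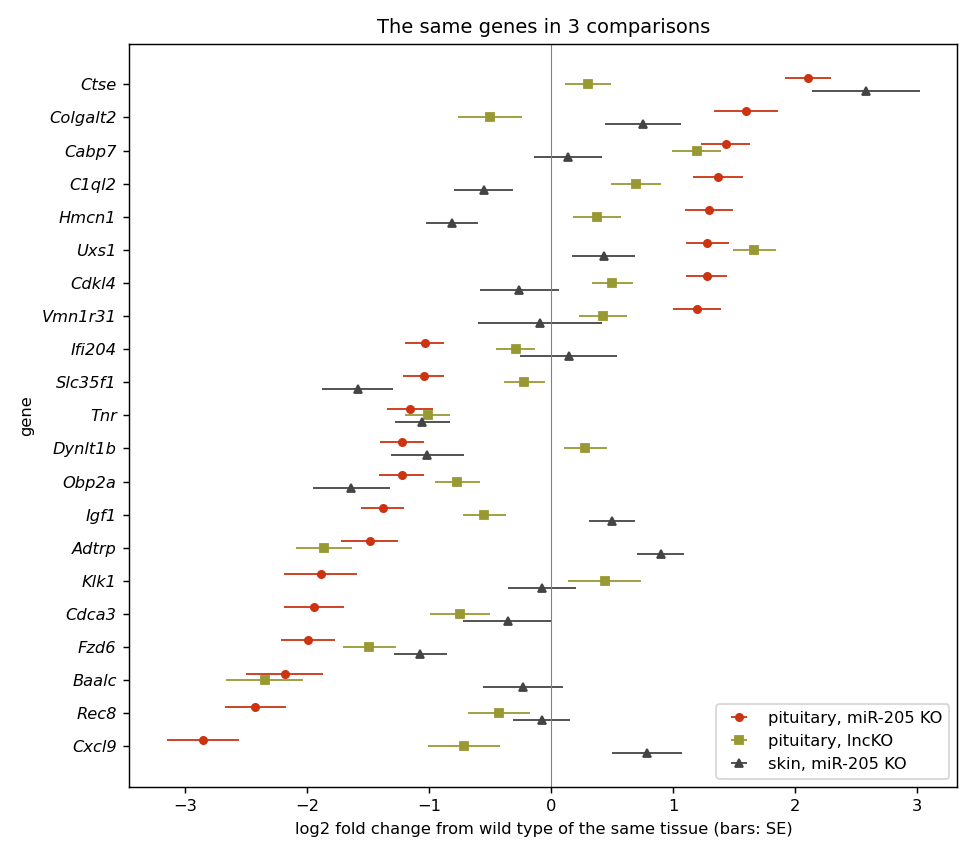
The log2 fold change from wild type of the same tissue (x axis, bars are standard errors, n = 3 arrays per group) is shown for each of the 21 genes in miR-205 KO pituitary (red circles), lncKO pituitary (olive squares) and miR-205 KO skin (black triangles). Ctse is far right in both tissues of miR-205 KO, at 2.10 and 2.58, and at 0.30 in lncKO, whereas Baalc and Rec8 are at -0.23 and -0.08 in skin.

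The hormone genes themselves did not pass the threshold. Gh, the growth hormone gene, read 894759, 846707 and 852202 in wild type against 851913, 845288 and 836965 in miR-205 KO (log2 difference -0.03 ± 0.15, SE, n = 3, adjusted p = 0.984). Gh was at the highest intensity of the array on all 9 pituitary arrays, and Prl, the prolactin gene, shared that value on sample 18, so both are read at the top of the scale and a difference there may be compressed. Prl was at -0.01 (adjusted p = 0.996) and Cga, the common subunit of the glycoprotein hormones, at 0.00 (1.0). Pomc, the precursor of corticotropin and melanotropins, read 320377, 200655 and 276138 against 183015, 163715 and 271366 (-0.38 ± 0.26, adjusted p = 0.820), and the groups overlapped.

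Tshb, the thyrotropin subunit, was the hormone gene with the largest difference. It read 112758, 117494 and 130330 in wild type, 68722, 84586 and 64675 in miR-205 KO and 134600, 134983 and 103575 in lncKO, so the miR-205 KO arrays were the lowest of the 9. The log2 difference from wild type was -0.73 ± 0.18 (SE, n = 3, adjusted p = 0.303). With limma's variance trend and robust estimation its adjusted p was 0.0223, and in every other alternative fit it did not pass the threshold. Dio2, the deiodinase that activates thyroid hormone, read 4564, 4990 and 5550 against 3410, 2870 and 3422 (-0.64, adjusted p = 0.390). The median of the 8 thyrotroph markers measured was -0.10.

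Among gonadotroph markers, 4 of 10 measured were higher at an unadjusted p under 0.05, where 4.34% of all probe sets were, and 0 passed the adjusted threshold. The list median was 0.31, beside 0.50 for lncKO against wild type. Between the knockouts, 0 of the 10 differed at an unadjusted p under 0.05, where 11.1% of all probe sets did. Nr5a1, the nuclear receptor SF-1 of gonadotrophs, read 880, 604 and 617 in wild type against 1775, 1422 and 1320 in miR-205 KO, with 1333, 1548 and 1003 in lncKO (1.12 ± 0.22, SE, n = 3, adjusted p = 0.151, and 0.0313 with the variance trend). No other alternative fit brought Nr5a1 past the threshold. Gnrhr, the receptor for gonadotropin-releasing hormone, read 18036, 15386 and 17225 against 50731, 30073 and 24142 (0.98, adjusted p = 0.392), with lncKO at 29155, 47487 and 43792. Nr0b1 stood at 0.81 and Foxl2 at 0.72, both with an adjusted p of 0.470. Foxl2 was dim, at 19, 16 and 20 in wild type against 42, 27 and 24 in miR-205 KO. The gonadotropin genes overlapped between groups: Lhb was at 0.25 ± 0.24 (adjusted p = 0.888) and Fshb at -0.01 ± 0.23 (0.998).

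Markers of the other hormone cells and of stem cells gave no adjusted call. In the somatotroph list, 2 of 11 were lower at an unadjusted p under 0.05, beside 3.13% of all probe sets: Sstr2, a somatostatin receptor, read 366, 261 and 447 against 216, 139 and 146 (log2 difference -1.10, adjusted p = 0.420), and Pappa2, a protease of IGF-binding proteins, 3043, 6501 and 6116 against 1739, 1702 and 2649 (-1.32, 0.347). Ghrhr, the receptor for growth hormone-releasing hormone, was at -0.04 ± 0.20 (adjusted p = 0.987), and Drd2, the dopamine receptor of lactotrophs, at -0.45 ± 0.22 (0.690). Of 15 stem and folliculostellate markers measured, 3 were higher and 1 lower at an unadjusted p under 0.05, with a median of 0.04. Of all probe sets, 4.34% were higher and 3.13% lower at that p. The 1 lower marker was Mia, a small secreted protein, at -0.44 (adjusted p = 0.599). Sox2, the transcription factor of the stem cell pool, was among the higher and read 1614, 1605 and 1815 in wild type, 2199, 2693 and 2179 in miR-205 KO and 4036, 3712 and 2901 in lncKO. The miR-205 KO arrays lay between the other groups (0.49 ± 0.18 from wild type, adjusted p = 0.589). For lncKO against wild type the median of the stem and folliculostellate list was 0.49. Between miR-205 KO and lncKO, 8 of the 15 were lower and 1 higher at an unadjusted p under 0.05. Of all probe sets, 5.42% were lower and 5.73% higher in that comparison. Doc2b, a calcium sensor of exocytosis, read 352, 165 and 217 in wild type, 343, 525 and 602 in miR-205 KO and 2086, 1283 and 1326 in lncKO. Its difference between miR-205 KO and lncKO was -1.68 on the log2 scale (adjusted p = 0.0483), and that from wild type was 1.04 (0.435).

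Across all 34 gene lists, which covered 417 measured genes, 0 lists had a member past the adjusted threshold. List medians ran from -0.57 for the cell cycle to 0.56 for myelin and neurons, beside 0.01 for all probe sets. In 9 lists no member had an unadjusted p under 0.05, as 7.47% of all probe sets did. The published miR-205 targets, messages whose repression a lost microRNA would lift, had a median of -0.05 over 17 measured. At an unadjusted p under 0.05, 1 of the 17 was higher and 1 lower, beside 4.34% and 3.13% of all probe sets. Erbb3, a receptor of the EGF receptor family, read 73, 116 and 85 in wild type against 147, 189 and 201 in miR-205 KO (log2 difference 0.99 ± 0.22, SE, n = 3, adjusted p = 0.233), and lncKO read 152, 168 and 117. Phlda3, an inhibitor of AKT, was lower at 16, 21 and 18 against 12, 11 and 15 (-0.54, adjusted p = 0.570). Zeb1, a repressor of epithelial genes, was at 0.02 ± 0.18 (adjusted p = 0.994), and Inppl1, the phosphatase SHIP2, at 0.07 ± 0.26 (0.981). An array of messenger RNA does not read repression of translation.

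**Figure D3:**
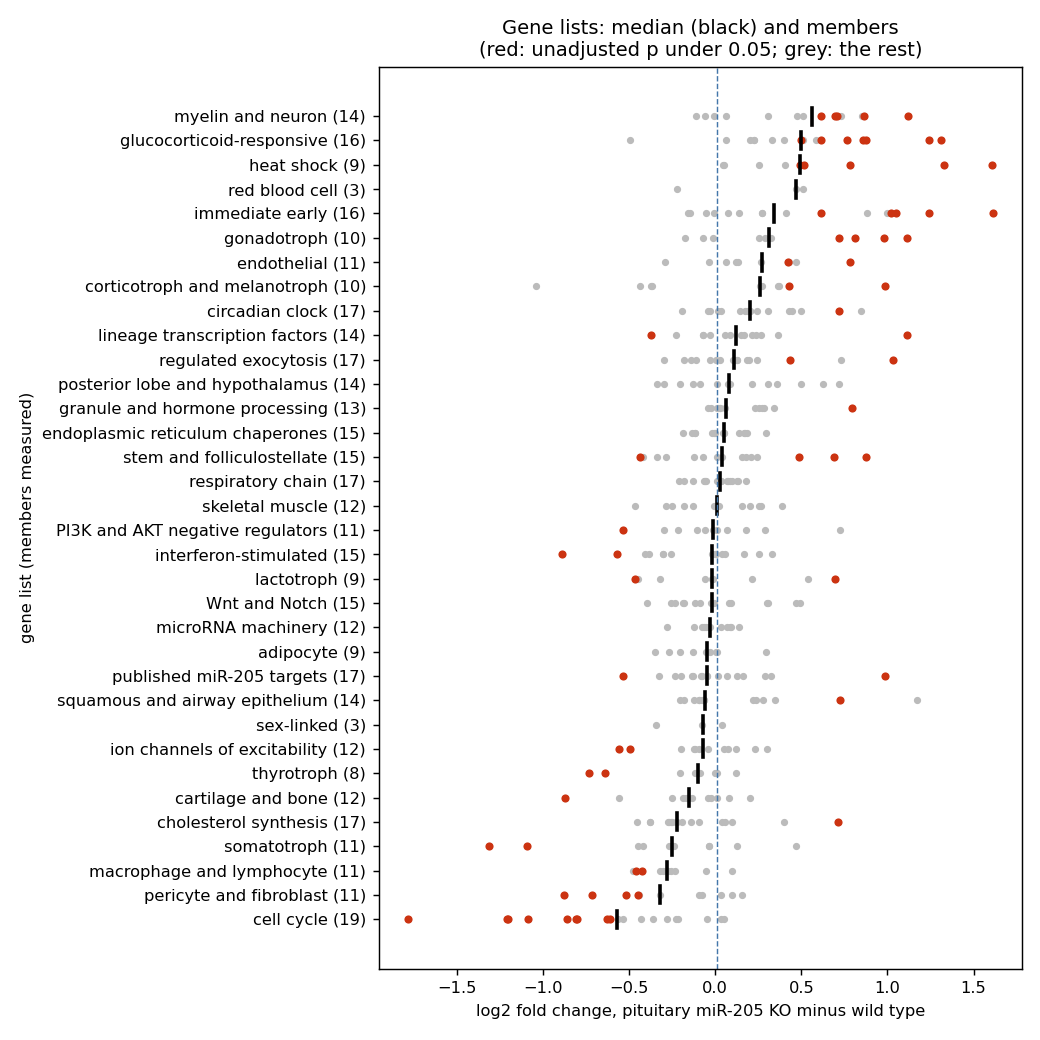
Each row is a gene list with its number of measured members, and each point is a member's log2 fold change between miR-205 KO and wild-type pituitary (x axis), red where the unadjusted p is under 0.05 and grey otherwise, with the list median in black and the median of all probe sets as a dashed line. The cell cycle list lies lowest with 9 of 19 members in red, and the myelin and neuron, glucocorticoid-responsive and heat shock lists lie highest.

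The cell cycle list stood lowest. Of 19 genes measured, 9 were lower and 0 higher at an unadjusted p under 0.05, or 47.4% beside 3.13% of all probe sets, and 17 were negative, beside 47.6%. Mki67, the marker of cycling cells, read 378, 568 and 582 in wild type against 129, 138 and 172 in miR-205 KO, while lncKO read 139, 492 and 494 (log2 difference from wild type -1.78 ± 0.40, SE, n = 3, adjusted p = 0.248). The lncKO array at 139, sample 13, lay with the miR-205 KO arrays, and without it the adjusted p was 0.0141. Mki67 passed the threshold in no other alternative fit. Ccnb2, a mitotic cyclin, read 95, 88 and 149 against 40, 48 and 53 (-1.21, adjusted p = 0.178). Kif11, a spindle motor, was at -1.21 (adjusted p = 0.356), the mitotic kinase gene Plk1 at -1.09 (0.361), the replication helicase gene Mcm6 at -0.86 (0.444) and cyclin A2, Ccna2, at -0.81 (0.470). Aurkb, Cdk1 and Bub1b were the remaining 3, at -0.80, -0.63 and -0.61. The mean log2 intensity of the list was 6.30, 6.50 and 6.68 in the wild-type arrays, 5.85, 5.75 and 6.05 in miR-205 KO and 5.95, 6.44 and 6.50 in lncKO. Against lncKO, 7 of 19 were lower at that p and 0 higher, where 5.42% of all probe sets were lower and 5.73% higher. The count of 9 was between 6 and 10 in every alternative fit. Cdca3, which passed the threshold, is not in the list.

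**Figure D4:**
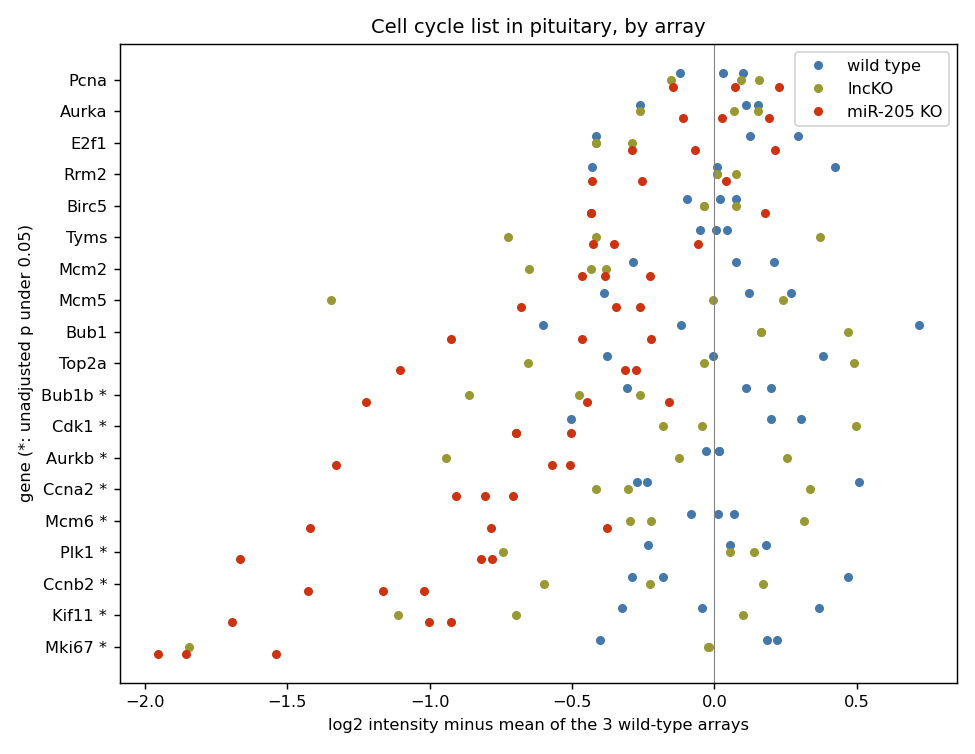
Each of the 19 measured cell cycle genes (rows) is shown by its log2 intensity minus the wild-type mean (x axis), with 1 point per array in blue for wild type, olive for lncKO and red for miR-205 KO, and an asterisk where the unadjusted p of miR-205 KO against wild type is under 0.05. For Mki67, Kif11, Ccnb2 and Plk1 the 3 red points lie left of all blue points, and for Mki67 the olive point of sample 13 lies among the red.

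Lists of hormone-responsive and stress-responsive genes had members with positive differences. Of 16 glucocorticoid-responsive genes, 7 were higher at an unadjusted p under 0.05, where 4.34% of all probe sets were, and the list median was 0.50 beside 0.94 for lncKO against wild type. Against lncKO, 9 of the 16 were lower at that p, where 5.42% of all probe sets were. Sgk1, a kinase induced by glucocorticoids, read 358, 310 and 323 in wild type, 528, 584 and 572 in miR-205 KO and 1090, 1050 and 1384 in lncKO (log2 difference 0.77 ± 0.17 from wild type, SE, n = 3, adjusted p = 0.217). The same order, wild type below miR-205 KO below lncKO, held for every array of Tsc22d3, the GILZ gene, at 2594, 1934 and 2162, 3408, 3267 and 3487, and 6645, 4896 and 8627. The count of 7 fell to 4 without wild-type sample 11.

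Immediate early genes, which turn on within minutes of a stimulus, followed another order. Of 16 measured, 5 were higher than in wild type at an unadjusted p under 0.05 and 12 were higher than in lncKO at that p, beside 4.34% and 5.73% of all probe sets. Against wild type the list median was 0.34 in miR-205 KO and -0.78 in lncKO. The count of 12 therefore also reflects lncKO lying below wild type. Zfp36, an RNA-decay factor, read 421, 342 and 360 in wild type, 987, 1121 and 1344 in miR-205 KO and 349, 387 and 809 in lncKO (1.61 ± 0.28, SE, n = 3, adjusted p = 0.0710). It passed the threshold with the variance trend (adjusted p = 0.0128), with the 6 arrays alone (0.0368) and without lncKO sample 15 (0.0104). In every other alternative fit Zfp36 did not pass. Egr1, a zinc finger transcription factor, read 14005, 6412 and 12259 against 26442, 22205 and 15621 (1.02, adjusted p = 0.664), with lncKO at 3653, 3132 and 12546. Wild-type sample 11 was the lowest of its group for Egr1, and without it the count of 5 was 2, and without miR-205 KO sample 17 it was 3.

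Heat shock genes were higher at an unadjusted p under 0.05 for 5 of 9, beside 4.34% of all probe sets, and all 9 were positive, beside 52.4%. The list median was 0.49, beside 0.53 for lncKO against wild type, so the rise was not particular to miR-205 KO. Between miR-205 KO and lncKO the list median was 0.01. At that p, 0 members were higher than in lncKO and 1 was lower, beside 5.73% and 5.42% of all probe sets. Hspa1a, an inducible chaperone, read 251, 171 and 207 in wild type against 446, 1380 and 408 in miR-205 KO (1.61 ± 0.44, SE, n = 3, adjusted p = 0.390), with sample 17 the highest. Without sample 17, or without wild-type sample 11, the count of 5 was 1, and without sample 16 or lncKO sample 15 it was 3. Myelin and neuron genes were higher at that p for 5 of 14, again beside 4.34%, with Nefl, a neurofilament, at 183, 118 and 146 against 427, 333 and 228 (1.12 ± 0.26, adjusted p = 0.277). Without sample 17 that count was 2, and without wild-type sample 10 or 11 it was 3. The list mean of the myelin and neuron genes was 6.59 to 6.97 in wild type and 6.99 to 7.68 in miR-205 KO, and its part in the rise of the neuronal genes C1ql2 and Cabp7 was not tested.

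Markers of supporting cells gave no adjusted call. Of 11 pericyte and fibroblast markers, 4 were lower at an unadjusted p under 0.05, where 3.13% of all probe sets were, among them the fibrillar collagen gene Col3a1, at 181, 323 and 200 against 139, 107 and 177 (-0.72, adjusted p = 0.601). That count was 1 without wild-type sample 11 or miR-205 KO sample 16 or 17, and 2 without sample 18. Of 11 endothelial markers, 2 were higher at that p, where 4.34% of all probe sets were: Flt1, a receptor for VEGF, at 0.78 (adjusted p = 0.287) and the junction gene Esam at 0.42 (0.608). Markers of fat and of squamous or airway epithelium were mostly dim: 6 of 9 and 6 of 14 were at or below an intensity of 16 on all 6 arrays. Lists for the respiratory chain, endoplasmic reticulum chaperones, microRNA machinery and the posterior lobe had 0 members at an unadjusted p under 0.05, of 17, 15, 12 and 14 measured. Of all probe sets, 7.47% had such a p in either direction, and each list is too short to tell 0 from that share.

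The called genes were uneven over the chromosomes. Chromosome 1, which carries the deleted locus, held 7 of the 21, or 33.3%, beside 5.56% of the probe sets tested. They were Uxs1, C1ql2, Ctse, Hmcn1, Colgalt2, Tnr and Ifi204, of which 5 rose and 2 fell. In the gene order of RefSeq they lie 907, 510, 463, 358, 349, 304 and 141 measured genes before Mir205, which has 1080 measured genes before it and 5 after it. At an unadjusted p under 0.05 the share on chromosome 1 was 8.91%, beside 7.47% of all probe sets, 9.71% on chromosome 12 and 8.99% on chromosome 3, both with 0 calls, so that share does not set chromosome 1 apart. Nearest to the locus itself, 15 genes were measured, 10 before and 5 after, and 0 passed the threshold. Their log2 differences ran from -0.75 to 0.29 with a median of -0.04, and 1 had an unadjusted p under 0.05, Cd34, a surface protein of endothelium and haematopoietic progenitors, at -0.75 (adjusted p = 0.470). Camk1g, the nearest before the locus, was at -0.20 (adjusted p = 0.896) and Plxna2, the nearest after it, at 0.29 (0.825). The chromosome pattern was noticed after the values were seen and has no test.

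**Figure D5:**
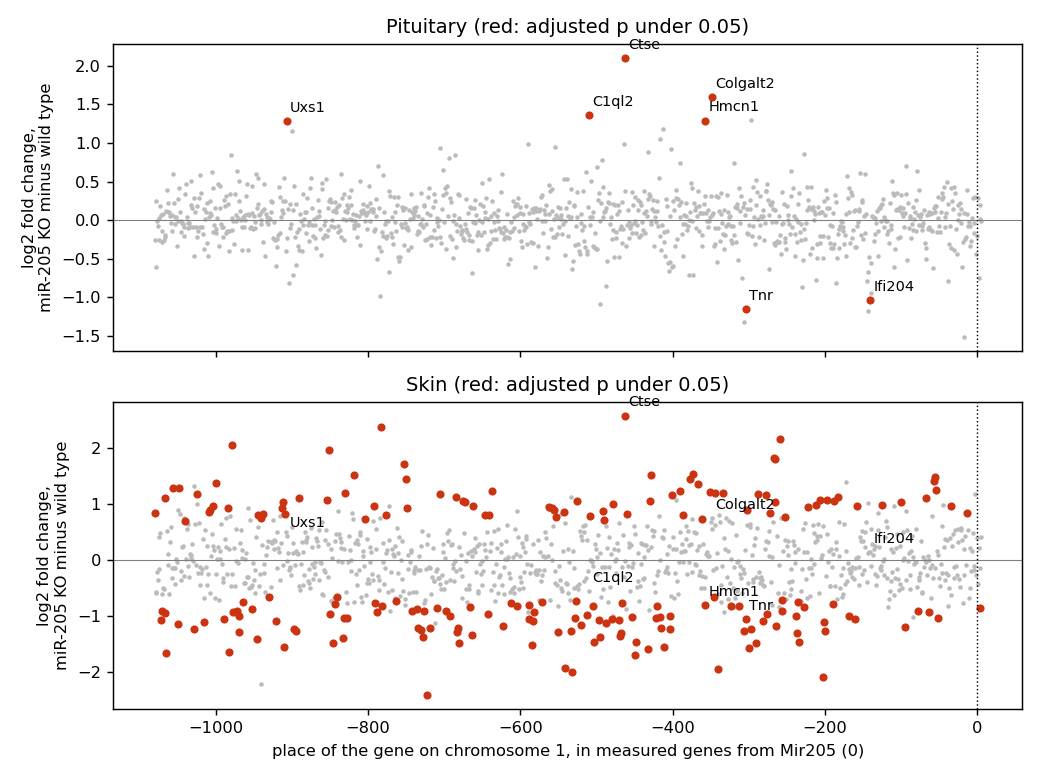
Measured genes of chromosome 1 are placed by their order from Mir205 at 0 (x axis, in measured genes) and by their log2 fold change between miR-205 KO and wild type (y axis), in pituitary above and in skin below, red where the adjusted p is under 0.05. In pituitary the 7 red points are spread from 907 to 141 genes before the locus, and in skin 18.8% of the probe sets of the chromosome are past the threshold.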

How the data were processed

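The deposited values are linear intensities rounded to whole numbers, 1 for each probe set on each array. How the authors corrected background, summarised probes and normalized is not stated in the labels used here. Of 22206 probe sets, 19572 carried 1 gene symbol in the platform annotation, 0 several and 2634 none. All 19572 matched RefSeq GRCm38.p6 by gene ID and stand for 19505 genes, 55 of them with more than 1 probe set, for which the brightest represented the gene in lists. The labels name no build for the intensities, so that table gave only names, chromosomes and gene order, and coordinates are printed for the microRNA alone.

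The deposited intensities were put on a log2 scale with no pseudocount and no further normalization. The test was limma 3.58.1 in R 4.3.3 (lmFit and eBayes, two-sided), on the 9 pituitary arrays with a term per group, 6 residual degrees of freedom and Benjamini-Hochberg adjustment over 19572 probe sets. The tissue difference came from all 18 arrays. Scripts were tested on simulated data. Precision is limited by the number of arrays, with a median standard error of 0.209 for log2 differences. No pair of the 9 pituitary arrays shared more than 5.49% of values, so none was treated as a copy of another. That share cannot show whether arrays hold RNA of the same animal, and pairs of skin arrays were not compared.

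Genes named were those past the threshold with a mean log2 intensity of at least 5, up to 12 per direction, and list members. The members and lists were chosen with earlier results of these data known. Relatives of called genes, such as the Ifi200 and Klk1 families, were chosen after the values were seen. A few items are not reported here.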

Additional observations from a re-analysis of the deposited data

Results flagged for a closer look

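For 11 of the 21 genes past the threshold in miR-205 KO pituitary, the knockout effect differed between pituitary and skin. The test was limma's interaction over all 18 arrays (Benjamini-Hochberg adjusted over all probe sets), which 9.95% of all probe sets passed. The 21 were chosen by their pituitary difference, which is part of the difference tested, so the 11 are not an independent count. The difference, given as the log2 effect in pituitary minus that in skin, was -3.64 for Cxcl9 (adjusted p = 7.02e-05), -2.38 for Adtrp (9.2e-05), -1.88 for Igf1 (0.000111), -2.35 for Rec8 (0.000478), -1.81 for Klk1 (0.0117), -1.95 for Baalc (0.0164) and -1.59 for Cdca3 (0.0377). It was 2.10 for Hmcn1 (adjusted p = 0.000157), 1.92 for C1ql2 (0.00106), 1.54 for Cdkl4 (0.0154) and 1.29 for Cabp7 (0.0245). Adtrp and Hmcn1 passed the threshold in both tissues in opposite directions. For Cxcl9 the skin value was 0.79 (adjusted p = 0.0783) and for Igf1 0.50 (0.0918), with pituitary values of -2.85 and -1.38. For Rec8, Klk1, Baalc, Cdca3, Cdkl4 and Cabp7 the skin values lay between -0.36 and 0.14 with adjusted p values of 0.538 or more. The pituitary arrays carry Y-linked transcripts and the skin arrays do not, so tissue and sex cannot be told apart in these differences.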

How the results depend on the processing

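All 21 genes kept their direction in every alternative that gave a value. The count of 21 became 0 with intensities floored at 16, where 2829 probe sets had no spread on the 9 arrays and limma's prior degrees of freedom went from 5.98 to 0.498, while 707 were still higher and 562 lower at an unadjusted p under 0.05. With that floor and a filter on dim probe sets together, an alternative chosen after seeing the data, it was 20. The count was 41 with a variance trend and robust estimation, 5 with the 6 arrays alone, 1 in an unmoderated linear model and 4 to 14 leaving out an array. The count of 57 between miR-205 KO and lncKO was 18 with the floor, 110 with a pseudocount of 16, 132 with the filter, 161 with the variance trend, 27 with the groups compared alone, 1 unmoderated and 4 to 65 leaving out an array. The 1948 tissue differences, 1225 positive and 723 negative, were 882 and 981 after median centring, and the total stayed between 1322 and 2190. Leaving out an array in turn gave 7 to 10 for the cell cycle count, 1 to 5 for heat shock, 2 to 6 for immediate early, 1 to 5 for pericyte and fibroblast, 2 to 7 for myelin and neuron and 4 to 8 for glucocorticoid-responsive genes. With the floor, and in the unmoderated model, the heat shock, immediate early and myelin and neuron counts of 5 were each 2, and the glucocorticoid-responsive count of 7 was 3 in the unmoderated model and in the fit of all 18 arrays. C1ql2, Ifi204, Slc35f1, Tnr and Vmn1r31 passed the threshold in 0 of 9 fits that left out an array. No paired analysis was possible because no replicate number recurs between groups. Where no value shows it, the cause of a shift was not tested. Signal near the bottom of the scale limits Ctse, Vmn1r31 and Cxcl9, and the top of the scale limits Gh and Prl.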

Other observations

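The probe set with the largest difference of all did not pass the threshold. Pttg1, which encodes securin, the inhibitor of separase that is abundant in pituitary tumours, read 1595, 1738 and 1618 in wild type, 2086, 2176 and 2512 in lncKO and 687, 30 and 35 in miR-205 KO. The miR-205 KO arrays were the lowest of the 9, but sample 16 stood far above samples 17 and 18, and the log2 difference from wild type was -4.20 ± 0.86 (SE, n = 3, adjusted p = 0.178). In skin Pttg1 was lower in miR-205 KO by -2.56 ± 0.50 (adjusted p = 0.00520). Lmbrd2 showed a like spread within the group, at 2249, 1820 and 2543 in wild type, 2408, 2198 and 2296 in lncKO and 244, 1189 and 84 in miR-205 KO, a log2 difference of -2.91 ± 0.66 (adjusted p = 0.252). In skin Lmbrd2 was at -1.13 ± 0.37 (adjusted p = 0.0561). Both genes were chosen after their values were seen.

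Probe sets without a gene symbol were left out of the test above. With all 22206 probe sets in the fit, 2 of them passed the threshold: 1 read 274, 240 and 283 in wild type against 101, 69 and 91 in miR-205 KO (log2 difference -1.63 ± 0.24, adjusted p = 0.0388), and the other 78, 69 and 105 against 36, 32 and 32 (-1.31 ± 0.20, adjusted p = 0.0394).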
